A study of Homo sapiens with 4 samples.

Results

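The 10 genes described here encode heat shock chaperones of the cytosol and of mitochondria: HSPA1A, HSPA1B, HSPA8, HSPH1, DNAJB1, DNAJA1, HSP90AA1, HSP90AB1, HSPD1 and HSPE1. They were chosen by name from the 28274 genes of the deposited table, through the symbol that GENCODE 29 gives to each Ensembl identifier, and all 10 had a row. Their RNA was compared between 2 libraries of the human cell line J-gammal labelled as FYB1 knockdown (titled sh-FYB1) and 2 libraries of the same line labelled as having no treatment (titled NC). No other agent or allele is named for either group. The labels do not tell whether the controls carried a construct, whether both knockdown libraries carry the same one, or whether replicate libraries stem from separate cultures. P-values are thus set by a spread among libraries that may be technical in origin.

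Chaperones of the HSP70 family bind exposed hydrophobic stretches of unfolded proteins and release them in a cycle driven by ATP. J-domain proteins bring clients to HSP70 and start ATP hydrolysis, and exchange factors such as HSP110 reset the cycle by releasing ADP. HSP90 takes clients such as kinases and steroid receptors from HSP70 and holds them near their native state, while HSP60 and its lid HSP10 enclose proteins inside the mitochondrial matrix. Some of these genes are transcribed in all cells, and others respond steeply to heat and misfolded protein through the transcription factor HSF1, which binds repeats of the unit GAA in alternating orientation, called heat shock elements.

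The knockdown and control libraries held 16693113 to 20251864 reads. These were recovered from values in FPKM (reads or fragments per kilobase of exon, scaled by a factor of each library). The targeted gene FYB1 encodes an adaptor of T cell receptor signalling. It stood at 6.18 and 4.53 FPKM in the knockdown libraries, against 17.6 and 20.1 FPKM in the controls. Limma-voom gave a log2 fold change of -1.83 ± 0.15 SE (adjusted p = 0.000419). It was called by limma-trend at -1.65 ± 0.15 SE (adjusted p = 0.0398). That call ended without knockdown library 1 (log2 fold change -1.84, limma-trend adjusted p = 0.117). The labels give no cell type. All 9 T cell markers examined were present, at 1.78 to 478 FPKM, with summed levels of 1062 and 1303 FPKM in the knockdown libraries and 1445 and 1338 FPKM in the controls. Of 23 markers of B, myeloid, NK, erythroid, epithelial and stromal cells, 19 had a row and CD79A alone passed 1 FPKM in any library (11.1 and 15.8 FPKM in knockdown, 24.5 and 21.2 FPKM in control), MS4A1, LYZ and EPCAM lay at or near 0, and the part of these differences in the results was not tested. The share of reads from the mitochondrial genome was 4.92% and 5.14% in the knockdown libraries and 4.09% and 4.03% in the controls, and the part of that shift was not tested either.

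Each of the 10 chaperone genes was lower in both knockdown libraries than in both controls. Together they took 0.225% and 0.235% of reads in the knockdown libraries, against 0.289% and 0.264% in the controls. Among the genes that could be tested, those furthest apart were the HSP70 gene HSPA1B at 0.334 of the control mean and the J-domain gene DNAJB1 at 0.501, beside HSPA1A at 0.262 on few reads. HSP90AA1, DNAJA1 and HSPD1 stood closest, at 0.868, 0.875 and 0.886 of the control mean. Lower levels in such bulk samples can come from fewer cells that make an RNA or from less of it per cell, and the 2 cannot be told apart.

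**Figure D1:**
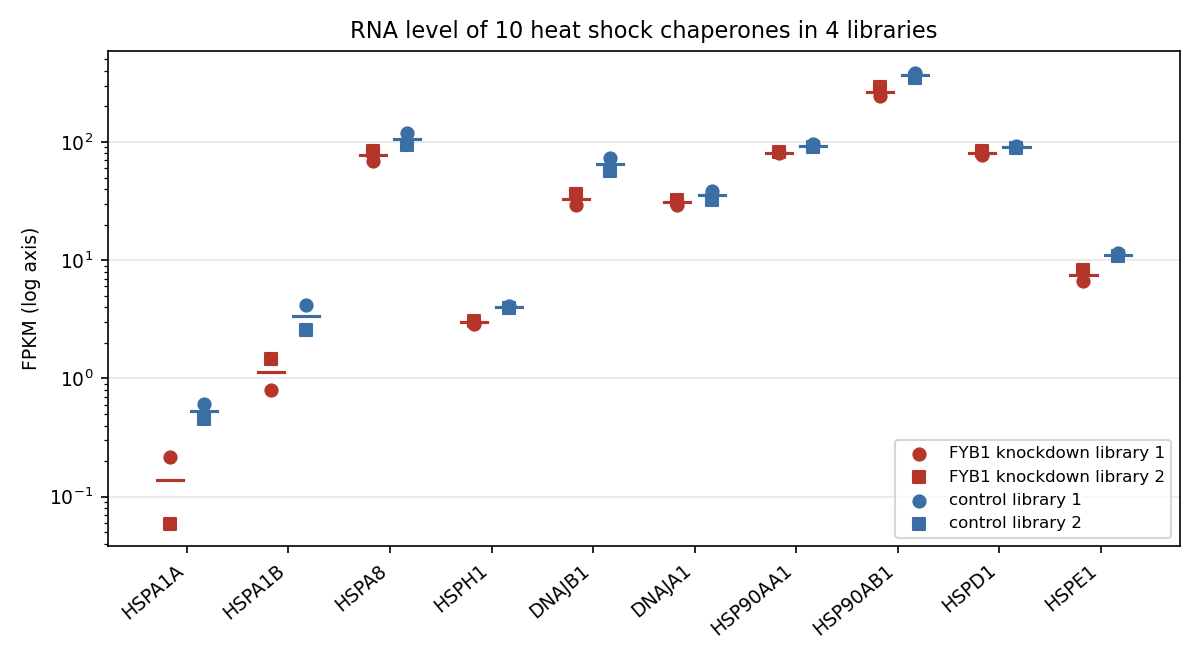
FPKM (log axis) of each chaperone gene in 2 FYB1 knockdown libraries (red, left) and 2 control libraries (blue, right), with circles for library 1, squares for library 2 and bars for group means. Every gene has both red points below both blue points, from HSPA1A under 1 FPKM to HSP90AB1 at 244 to 381 FPKM.

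The tests across all genes called few of these differences. Of the 10 genes, 9 passed the filter on low values (a mean of at least 1 FPKM), and HSPA1A did not. The main test, limma-trend on log2(FPKM + 1), called 0 of the 9 at an adjusted p under 0.05, where 0.205% of 13172 tested genes were called (0.137% lower and 0.0683% higher). An unadjusted p under 0.05 was reached by 6 of the 9, and by 3088 of all 13172. The second test, limma-voom on recovered reads, called 3 of the 9 lower (HSPA1B, DNAJB1 and HSPE1) and none higher, where 7.74% of all tested genes were called (5.8% lower and 1.94% higher). That count depended on the libraries used. A fit with 1 library left out keeps 1 library in a group and 1 residual degree of freedom before the spread is shared across genes. In such fits the median limma-trend log2 fold change of the 9 was -0.58 to -0.31. Groups without overlap and lower in knockdown were found for 9 of the 9, and for 34.6% of all tested genes. The median log2 fold change was -0.46 over the 9 genes and -0.03 over all tested genes.

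Abundant genes were lower in the knockdown libraries more often than scarce ones, and most chaperone genes are abundant. Among the 791 tested genes that averaged 50 FPKM or more the median log2 fold change was -0.36, 87.1% had a negative one, and 73.7% were lower without overlap. The corresponding medians were -0.20 over 1686 genes at 20 to 50 FPKM, -0.05 over 5266 genes at 5 to 20 FPKM and 0.07 over 5429 genes at 1 to 5 FPKM. HSPA8 and HSP90AB1, each at -0.46, lay a little below the median of their class, with 32.5% and 33.2% of that class further down, while HSP90AA1 (-0.20) and HSPD1 (-0.17) lay above it. DNAJB1 (-0.97) lay lower than all but 14 of the 1686 genes of its class, HSPA1B (-1.04) lower than all but 28 of 5429, and HSPE1 (-0.52) had 4.69% of its class below it. DNAJB1 averaged 49.1 FPKM, just under the edge of the class from 50 FPKM, whose median was -0.36. Its place in that class was not computed. These places are a description of the libraries and carry no test.

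**Figure D2:**
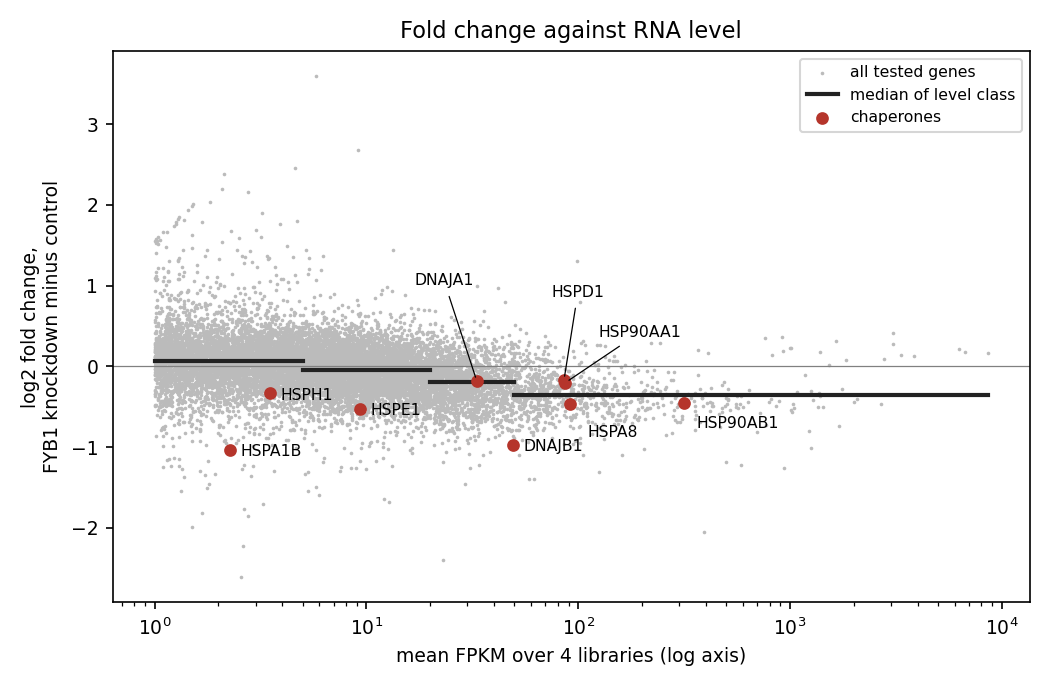
The log2 fold change on the log2(FPKM + 1) scale, FYB1 knockdown minus control, against the mean FPKM over the 4 libraries (log axis) for all 13172 tested genes (grey), with the median of each of 4 level classes (black bars) and 9 chaperone genes in red. DNAJB1 and HSPA1B lie far below the bar of their class, whereas HSP90AA1, HSPD1 and DNAJA1 lie on or above theirs.

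The heat shock elements near these genes are shown because they are the sequence feature by which the family is usually grouped. RefSeq windows of 300 bases, 250 before to 50 after each annotated start (GRCh38.p14), were found for all 10 genes and searched on both strands for the 2-unit words GAANNTTC and TTCNNGAA, each its own reverse complement, and for the overlapping 3-unit words GAANNTTCNNGAA and TTCNNGAANNTTC. A 3-unit word was present for 5 of the 10 genes (HSPA8, DNAJA1, HSP90AA1, HSP90AB1 and HSPD1), against 0.608% of 27305 genes and 0.490% of 35116 windows. A 2-unit word, and no exact 3-unit word, was present for HSPA1A, HSPA1B and DNAJB1. Units that match in part were not searched. Of all genes 16.2%, and of windows 13.5%, held a 2-unit word. HSPE1 and HSPH1 had none of these letters in the window. The stretches below lie before the start, 5′ to 3′ on the strand of the gene, with the words in capitals.
HSPA1A, chr6:31815383-31815462, plus strand: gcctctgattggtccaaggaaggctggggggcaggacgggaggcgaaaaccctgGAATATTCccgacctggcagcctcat
HSPA1B, chr6:31827579-31827658, plus strand: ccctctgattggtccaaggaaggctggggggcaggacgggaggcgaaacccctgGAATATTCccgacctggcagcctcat
DNAJB1, chr19:14518433-14518512, minus strand: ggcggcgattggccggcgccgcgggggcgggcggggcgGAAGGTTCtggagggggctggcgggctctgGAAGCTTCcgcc
HSP90AB1, chr6:44247773-44247852, plus strand: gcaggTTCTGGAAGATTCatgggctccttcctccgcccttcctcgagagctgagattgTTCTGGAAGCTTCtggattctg
HSP90AA1, chr14:102087105-102087134, minus strand: tcTTCCGGAAGGTTCgggaggcTTCTGGAA
HSPA8, chr11:123062171-123062200, minus strand: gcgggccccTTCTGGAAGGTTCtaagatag
HSPD1, chr2:197500061-197500090, minus strand: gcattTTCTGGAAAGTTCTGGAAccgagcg

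The stretches of HSPA1A and HSPA1B match at 78 of 80 positions. The DNAJB1 stretch holds 2 separate 2-unit words, and the HSP90AB1 stretch 2 separate 3-unit words. The 3-unit word of DNAJA1 lies after its start and is not printed. Of the companion genes, 53 had a window and 4 of these held a 3-unit word (HSPA6, CHORDC1, DNAJB6 and SERPINH1). A match is a description of letters and not a measured binding site. For 5 of the printed genes (DNAJB1, HSP90AB1, HSP90AA1, HSPA8 and HSPD1) the stretch lies inside the longer span that GENCODE 29 gives the gene, and the HSPD1 stretch ends 289 bases from the RefSeq start of HSPE1. The chaperone genes with 3 units had limma-trend log2 fold changes from -0.46 to -0.17. Those of HSPA1B and DNAJB1, with 2-unit words, were -1.04 and -0.97, and those of HSPE1 and HSPH1, with none, were -0.52 and -0.34. The 4 companions with 3 units had -1.36 (HSPA6), -0.21 (SERPINH1), -0.098 (DNAJB6) and -0.072 (CHORDC1). Among the other genes with a 3-unit word, companions of the chaperones left out, 30 were tested, 18 had a lower and 12 a higher mean in knockdown, and their median log2 fold change was -0.01. Neither test called any of these 30, and 5 passed 0.05 in limma-trend before adjustment, as 3088 of all 13172 did.

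HSP70 proteins were represented by 3 genes. HSPA1A and HSPA1B (chromosome 6, 31815464 to 31817946 and 31827735 to 31830255, plus strand, hg38) encode the stress-inducible HSP70. They are nearly identical: 71.3% of the 50-base words in HSPA1A transcripts also occur in HSPA1B, so reads of either may have been placed on the other. HSPA1B had 0.796 and 1.47 FPKM (37 and 76 reads) in the knockdown libraries, against 4.22 and 2.58 FPKM (177 and 109 reads) in the controls. Both knockdown values lay below both control values, which themselves differed by 0.55 on the log2(FPKM + 1) scale. The gene fell by limma-voom (log2 fold change -1.58 ± 0.34, adjusted p = 0.0276), and limma-trend gave -1.04 ± 0.25 (adjusted p = 0.130). The limma-voom call ended without knockdown library 1 (-1.16, adjusted p = 0.0978), without control library 1 (-1.23, adjusted p = 0.0711), and when libraries were scaled by their summed reads (adjusted p = 0.0540) or all genes were kept (adjusted p = 0.0858).

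HSPA1A rested on 10 and 3 reads in the knockdown libraries and on 25 and 19 reads in the controls, or 0.218 and 0.0590 FPKM against 0.605 and 0.456 FPKM. The ratio of the scaled sums, knockdown over control, was 0.254 with an exact 95% interval of 0.125 to 0.480 that covers counting error only. With the reads of both genes added, the pair had 1.02 and 1.54 FPKM in the knockdown libraries, against 4.85 and 3.05 FPKM in the controls. The pair fell by limma-voom (log2 fold change -1.60 ± 0.31, adjusted p = 0.0182), while limma-trend gave -1.10 ± 0.22 (adjusted p = 0.111). The limma-voom call of the pair ended without knockdown library 1 (-1.31, adjusted p = 0.0667).

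HSPA8 (chromosome 11, 123057489 to 123063230, minus strand) encodes HSC70, the HSP70 of unstressed cells that also strips clathrin from vesicles. It had 69.6 and 84.5 FPKM (6223 and 8391 reads) in the knockdown libraries, against 119 and 94.5 FPKM (9595 and 7691 reads) in the controls. Knockdown library 2 and control library 2 stood close together, and the largest gap was between the 2 libraries numbered 1. Neither test called HSPA8 (log2 fold change -0.46 ± 0.18 and adjusted p = 0.200 by limma-trend, -0.47 ± 0.16 and adjusted p = 0.0840 by limma-voom). Without knockdown library 2 its limma-voom log2 fold change was -0.61.

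HSPH1 (chromosome 13, 31134974 to 31162388, minus strand) encodes HSP105, an HSP110 protein that exchanges nucleotide on HSP70. It had 2.88 and 3.08 FPKM in the knockdown libraries, against 4.10 and 3.95 FPKM in the controls. Libraries of a group lay close together here, and the gap between groups was larger than either spread. Limma-trend gave a log2 fold change of -0.34 ± 0.10 (adjusted p = 0.156) and limma-voom -0.43 ± 0.13 (adjusted p = 0.0676). Its exons sum to 8390 bases, none of its 50-base words occurs in another gene, and corrected for length and GC content its log2 fold change was -0.51 (limma-trend adjusted p = 0.0961). Its limma-voom log2 fold change was -0.48 without knockdown library 2.

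The J-domain cochaperones differed from each other. DNAJB1 (chromosome 19, 14514770 to 14529770, minus strand), the HSP40 induced by heat, had 29.2 and 36.3 FPKM (1979 and 2729 reads) in the knockdown libraries, against 73.7 and 57.2 FPKM (4505 and 3525 reads) in the controls. Even the higher knockdown value lay well under the lower control value. DNAJB1 fell by limma-voom (log2 fold change -0.99 ± 0.15, adjusted p = 0.00722), and limma-trend gave -0.97 ± 0.18 (adjusted p = 0.104). The limma-voom call held in all 9 alternatives, with adjusted p up to 0.0433 and log2 fold changes from -1.18 to -0.81. Limma-trend called it when only genes averaging 5 FPKM or more were tested (adjusted p = 0.0461), and gave -1.15 without control library 2.

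Exons of TECR, an enzyme of very long chain fatty acid synthesis on the other strand, overlap those of DNAJB1, and 4.31% of the DNAJB1 words occur in TECR transcripts. Whether counting used strand is not given. TECR had 19.1 and 24.1 FPKM in the knockdown libraries, against 33.9 and 31.3 FPKM in the controls, and it fell by limma-voom as well (log2 fold change -0.60, adjusted p = 0.0303). The part of shared reads in the DNAJB1 result was not tested.

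DNAJA1 (chromosome 9, 33025211 to 33039907, plus strand), a farnesylated J-domain protein found in most cells, had 29.6 and 32.4 FPKM in the knockdown libraries, against 38.3 and 32.6 FPKM in the controls. Knockdown library 2 and control library 2 were nearly level. No test called it (log2 fold change -0.18 ± 0.13, limma-trend adjusted p = 0.404), and under quantile normalization its direction turned by limma-trend (0.045) and not by limma-voom (-0.10). DNAJB1 stood at 0.988 and 1.12 times DNAJA1 in the knockdown libraries, against 1.92 and 1.76 times in the controls. The log2 ratio of the 2 genes was thus 0.07 ± 0.13 in knockdown and 0.88 ± 0.09 in control (SD, n = 2 each), a difference of -0.81 (exact two-sided permutation p = 0.333, the smallest that 2 against 2 libraries allow).

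**Figure D3:**
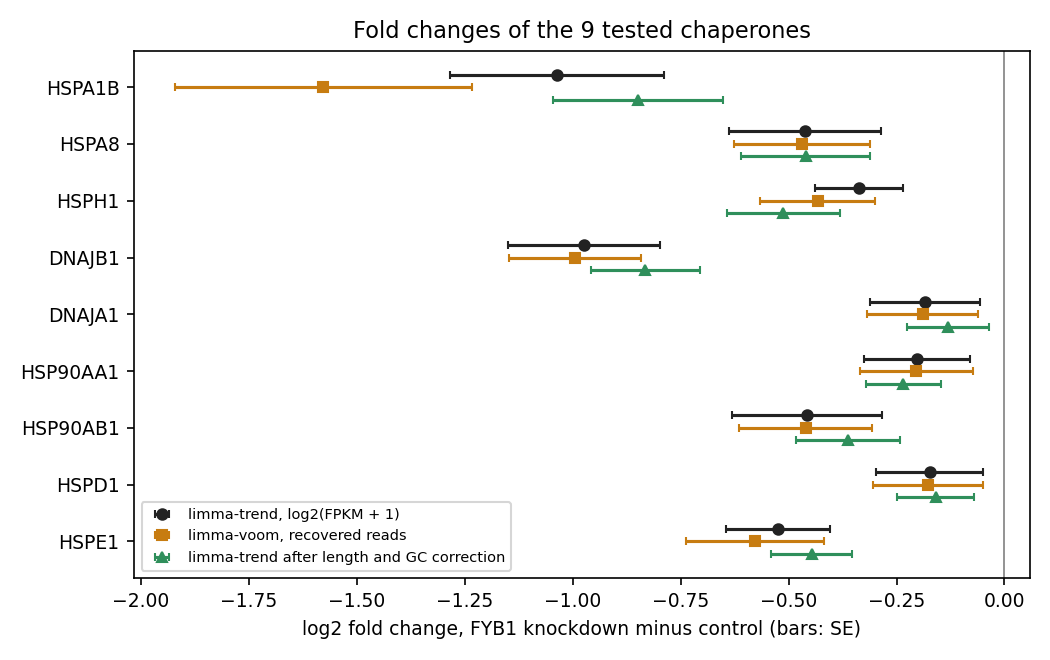
Log2 fold changes (FYB1 knockdown minus control, bars are SE) of 9 chaperone genes by limma-trend on log2(FPKM + 1), by limma-voom on recovered reads, and by limma-trend after a correction for exon length and GC content. HSPA1B and DNAJB1 lie furthest to the left under each of these, at -0.83 or lower, and DNAJA1, HSP90AA1 and HSPD1 lie nearest to 0.

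Of the HSP90 pair, HSP90AB1 encodes the constitutive form and HSP90AA1 the inducible one. HSP90AB1 (chromosome 6, 44246166 to 44253888, plus strand) was the most abundant of the 10 genes, with 244 and 289 FPKM (13406 and 17657 reads) in the knockdown libraries, against 381 and 350 FPKM (18910 and 17505 reads) in the controls. The groups did not overlap, and knockdown library 1 lay furthest from the rest. Limma-trend gave a log2 fold change of -0.46 ± 0.17 (adjusted p = 0.199) and limma-voom -0.46 ± 0.15 (adjusted p = 0.0831). Without knockdown library 2 limma-voom gave -0.58. Under quantile normalization its limma-trend fold change was -0.0009, and -0.36 once corrected for length and GC content.

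HSP90AA1 (chromosome 14, 102080738 to 102139699, minus strand) had 80.0 and 81.8 FPKM in the knockdown libraries, against 96.2 and 90.3 FPKM in the controls. Its difference was small and uncalled (log2 fold change -0.20 ± 0.12, limma-trend adjusted p = 0.347), and under quantile normalization it turned to 0.12 by limma-trend and was -0.028 by limma-voom. Both genes have processed pseudogenes, and 14.02% of the HSP90AA1 words and 16.6% of the HSP90AB1 words occur in transcripts of other genes. HSP90AB1 exceeded HSP90AA1 by 3.05 and 3.54 times in the knockdown libraries and by 3.96 and 3.88 times in the controls. The log2 ratio of HSP90AA1 to HSP90AB1 was -1.72 ± 0.15 in knockdown and -1.97 ± 0.02 in control, a difference of 0.25 (exact permutation p = 0.333), and of 0.15 without knockdown library 1.

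HSPD1 and HSPE1 encode HSP60 and HSP10, the chaperonin of the mitochondrial matrix and its lid, and they lie head to head on chromosome 2 (197486581 to 197516737, minus strand, and 197499994 to 197503457, plus strand). HSPD1 had 77.5 and 83.4 FPKM (6062 and 7249 reads) in the knockdown libraries, against 93.2 and 88.4 FPKM (6586 and 6300 reads) in the controls. The groups did not overlap but lay close together. No test called it (log2 fold change -0.17 ± 0.12, limma-trend adjusted p = 0.418), and under quantile normalization its direction turned by limma-trend (0.14) and not by limma-voom (-0.023).

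HSPE1 had 6.69 and 8.25 FPKM (244 and 334 reads) in the knockdown libraries, against 11.5 and 10.8 FPKM (377 and 359 reads) in the controls. It fell by limma-voom (log2 fold change -0.58 ± 0.16, adjusted p = 0.0494), just under the threshold, and limma-trend gave -0.52 ± 0.12 (adjusted p = 0.128). The limma-voom call held in 1 of 9 alternatives, the one without knockdown library 2. It ended without knockdown library 1 (-0.43, adjusted p = 0.124), without control library 1 (-0.54, adjusted p = 0.379) and without control library 2 (-0.62, adjusted p = 0.144). Of the HSPE1 words, 22.7% occur in other genes, among them HSPD1, which overlaps it, the readthrough gene HSPE1-MOB4 and pseudogenes, so its level is uncertain. HSPD1 stood at 11.6 and 10.1 times HSPE1 per kilobase of annotated exon in the knockdown libraries, against 8.14 and 8.17 times in the controls, and the log2 ratio differed by 0.41 (exact permutation p = 0.333).

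**Figure D4:**
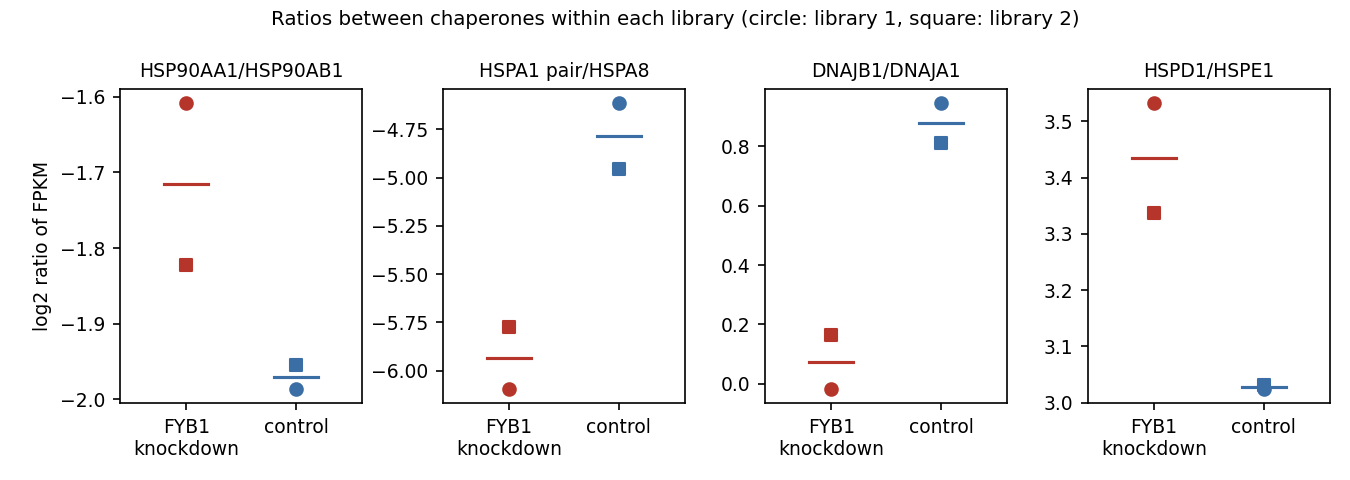
Log2 ratio of FPKM between pairs of chaperone genes in each FYB1 knockdown library (left of each panel) and each control library (right), with bars for group means. HSPA1 pair stands for HSPA1A and HSPA1B summed. The groups do not overlap in any of the 4 ratios, and the widest gaps are -1.15 for the HSPA1 pair to HSPA8 and -0.81 for DNAJB1 to DNAJA1.

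Levels per kilobase spanned a wide range. Per kilobase, the order from the most to the least abundant was HSP90AB1, HSPA8, HSP90AA1, HSPD1, DNAJB1, DNAJA1, HSPE1, HSPH1, HSPA1B and HSPA1A by the mean over the 4 libraries. HSPA8, HSP90AA1 and HSPD1 overlapped as neighbours in both groups. DNAJB1 and DNAJA1 overlapped in the knockdown libraries, and not in the controls, whereas HSPH1 and HSPA1B overlapped in the controls only. HSPA8 exceeded the HSPA1 pair by 68.3 and 54.8 times in the knockdown libraries and by 24.5 and 31.0 times in the controls, a difference of -1.15 in the log2 ratio of the pair to HSPA8 (exact permutation p = 0.333).

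The libraries of a group also differed in a shared way. Summed over all genes, libraries 1 and 2 held 261026 and 300981 FPKM in knockdown and 328851 and 309189 FPKM in control. The share of single genes in that order is not given here. In 9 of the 10 chaperone genes knockdown library 1 was lower than knockdown library 2, with HSPA1A the exception. In 10 of 10 control library 1 was higher than control library 2. The median log2 fold change of the 9 tested genes was accordingly -0.32 without knockdown library 1, -0.31 without control library 1, -0.58 without knockdown library 2 and -0.52 without control library 2. Under quantile normalization it was -0.14. Exons of the 9 genes had a median length of 3672 bases, against 4267 bases over all tested genes, and corrected for length and GC content the median log2 fold change of the 9 was -0.45.

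Genes that work with the chaperones were examined as 66 companions in 6 roles, and 59 of them were tested. Limma-voom called 5 of the 59 lower (HSPA6, STUB1, FKBP4, UBB and CLPP) and none higher, where 5.8% of all tested genes were called lower. Limma-trend called 0 of the 59, with 16 under 0.05 before adjustment, as were 3088 of all 13172. Lower means were found for 48 and higher means for 11, and the share of lower means over all tested genes was 54.2%. Both shares depended on level. From 1 to 5 FPKM 39.9% of genes had a negative log2 fold change and 1.5% were called lower by limma-voom. At 50 FPKM or more these were 87.1% and 19.6%. Within their level classes, 0.203% of genes lay further down than HSPA6, 4.39% than STUB1, 14.65% than FKBP4, 14.2% than UBB and 13.65% than CLPP. The median log2 fold change was -0.17 over 44 cytosolic companions and -0.18 over 15 mitochondrial ones, less far down than the -0.46 of the 9 chaperone genes. HSPA1L, HSPA2, DNAJA4, TTC4, CRYAB and HSPB6 lay under 1 FPKM in every library and were not tested, and HSPB8 had no row.

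HSPA6, a strictly inducible HSP70 gene with a closely related pseudogene, HSPA7, stood furthest apart of all companions. It had 0.961 and 1.28 FPKM (42 and 62 reads) in the knockdown libraries, against 5.70 and 3.42 FPKM (225 and 136 reads) in the controls. HSPA6 fell by limma-voom (log2 fold change -1.97 ± 0.32, adjusted p = 0.0101), a call kept in all 8 alternatives that gave it a value, and limma-trend gave -1.36 ± 0.22 (adjusted p = 0.0995). Reads shared between HSPA6 and HSPA7 were not measured, so its level is uncertain. The other 10 tested genes of the HSP70 and exchange factor role lay between -0.45 and 0.13, and ST13, which links HSP70 to HSP90, had 56.4 and 60.6 FPKM in knockdown against 66.1 and 61.5 FPKM in control.

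Among 13 tested HSP90 cochaperones 12 had lower means, where 54.2% of all tested genes did, and more of the abundant ones. STUB1, the ubiquitin ligase CHIP that marks chaperone clients for degradation, had 13.8 and 20.6 FPKM in the knockdown libraries, against 29.02 and 27.7 FPKM in the controls, and fell by limma-voom (log2 fold change -0.74 ± 0.17, adjusted p = 0.0304), a call that held in 5 of 9 alternatives and ended without control library 1 (adjusted p = 0.104) among others. FKBP4, an immunophilin of steroid receptor complexes, had 23.8 and 31.6 FPKM in knockdown against 42.0 and 37.8 FPKM in control (log2 fold change -0.54 ± 0.15, adjusted p = 0.0483 by limma-voom). The FKBP4 call held in 2 of 9 alternatives, and it ended without knockdown library 1 (-0.33, adjusted p = 0.0902), without control library 1 (-0.46, adjusted p = 0.419) and without control library 2 (-0.61, adjusted p = 0.111).

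The genes of the heat shock factors were not called. HSF1, the main activator of heat shock genes, had 26.4 and 31.2 FPKM in the knockdown libraries, against 33.8 and 34.2 FPKM in the controls (log2 fold change -0.24 ± 0.12, limma-trend adjusted p = 0.287). HSF2, a related factor, had 19.3 and 17.8 FPKM in knockdown against 20.4 and 20.6 FPKM in control (-0.14 ± 0.10, limma-trend adjusted p = 0.430). RNA levels do not measure the activity of these proteins. Of 11 other J-domain genes 10 had lower means, where 54.2% of all tested genes did, and none was called. DNAJC5, a J-domain protein of secretory vesicles, had 41.6 and 51.6 FPKM in knockdown against 50.4 and 48.8 FPKM in control. DNAJC8, of RNA splicing, had 34.4 and 42.0 FPKM in knockdown against 45.0 and 41.5 FPKM in control. Both of these overlapped between groups.

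UBB, a ubiquitin gene that heat also induces, had 75.2 and 98.5 FPKM in the knockdown libraries, against 141 and 123 FPKM in the controls, and fell by limma-voom (log2 fold change -0.62 ± 0.15, adjusted p = 0.0329). That call held in 3 of 9 alternatives, and it ended without knockdown library 1 (-0.42, adjusted p = 0.0568), without control library 1 (-0.52, adjusted p = 0.343) and without control library 2 (-0.72, adjusted p = 0.0534).

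In the mitochondrial role 9 of 15 genes had lower means and 6 higher, where 54.2% of all tested genes had lower ones. CLPP, the protease subunit of the matrix ClpXP complex, had 44.0 and 60.8 FPKM in the knockdown libraries, against 84.1 and 75.7 FPKM in the controls, and fell by limma-voom (log2 fold change -0.62 ± 0.15, adjusted p = 0.0357). Its call held in 3 of 9 alternatives, and it ended without knockdown library 1 (-0.39, adjusted p = 0.0600), without control library 1 (-0.55, adjusted p = 0.294) and without control library 2 (-0.70, adjusted p = 0.0555). LONP1, the other large matrix protease, had 60.7 and 79.8 FPKM in knockdown against 92.4 and 97.6 FPKM in control and was not called (limma-voom adjusted p = 0.0869).

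**Figure D5:**
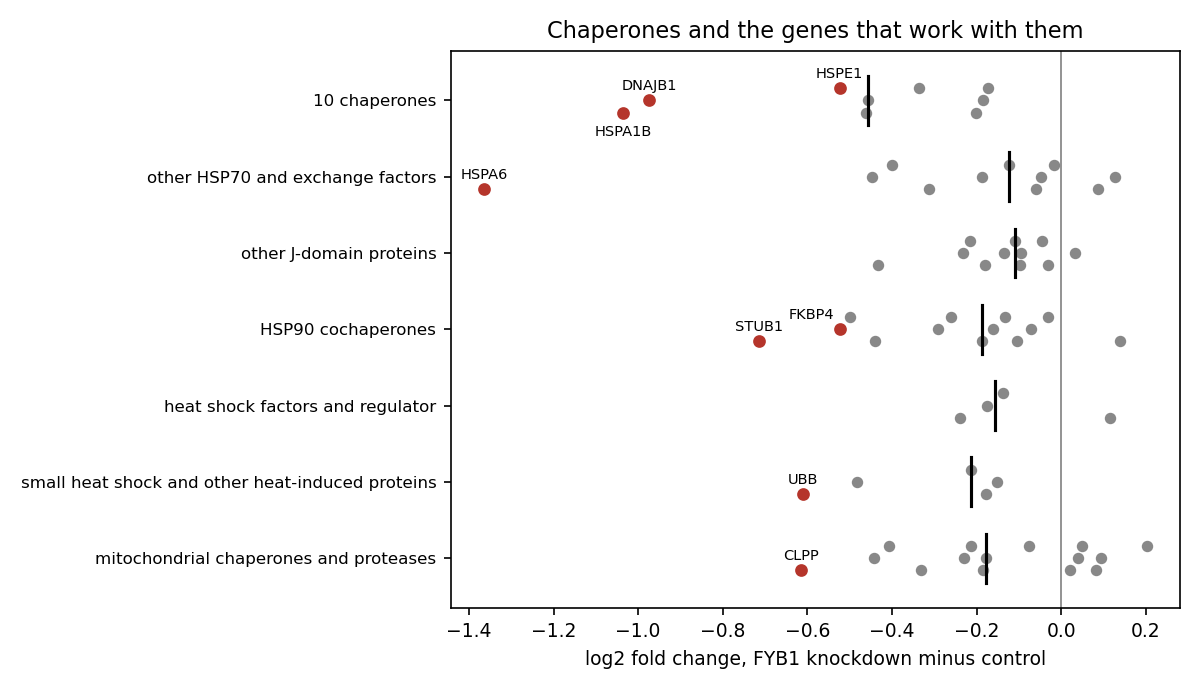
Log2 fold changes (FYB1 knockdown minus control, limma-trend on log2(FPKM + 1)) of the tested chaperone genes and of 59 companions by role, with black bars for medians and red points for genes called by limma-voom. All 8 red points lie to the left of 0, and the companions' medians lie between -0.21 and -0.11, to the right of the -0.46 of the chaperones.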

How the data were processed

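RNA was measured by sequencing in 4 libraries of J-gammal cells made from Trizol RNA with a TruSeq kit, per the labels' protocols. Per the submitters' processing notes, HISAT2 2.0.5 and hg38 were used. The sources used here do not give the counting program, the annotation or whether strand was used. The deposited table names no unit, and its values were identified as FPKM, scaled by the authors: multiplied by the merged exon length in GENCODE 29, 100% of values came out as whole reads times a constant of the library, within a tolerance of 0.01, which gave back the reads. All 28274 identifiers matched GENCODE 29, and where 2 rows shared the symbol HSPA14, ENSG00000187522 was used. No value column was left out.

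As the main test, limma-trend (limma 3.58.1, R 4.3.3) was run on log2(FPKM + 1) for the 13172 genes averaging 1 FPKM or more, with Benjamini-Hochberg adjustment over all of them and a threshold of 0.05. Its fold changes refer to log2(FPKM + 1) and so understate the change of scarce genes. The second test was limma-voom on reads, scaled by the totals the authors had used. Relative to each other, these totals were 1.02 and 1.14 in the knockdown libraries and 0.924 and 0.931 in the controls. They equalled size factors from the recovered reads (the median over genes of reads relative to their geometric mean over libraries). They thus differed from the summed reads, which served as an alternative. Single ratios were compared by exact permutation. Reads shared between genes were gauged from words of 50 bases in GENCODE 29 transcripts. The length and GC correction used splines with 5 degrees of freedom. Fits were tested on simulated data. Alternatives changed the scaling, filter, pseudocount, library total, replicate block and libraries used.

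Both the chaperone genes and the companion lists were chosen with earlier results of these data known. The text names all 10 chaperone genes, FYB1, and from each companion role up to 4 genes past the limma-voom threshold, or the most abundant where fewer than 2 passed; 1 gene that this rule names is not reported here. Overlapping TECR, marker genes and genes with a heat shock word were named outside that rule, CD79A after its values were seen.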

Additional observations from a re-analysis of the deposited data

How the results depend on the processing

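With 2 libraries a group, counts of calls moved widely. The limma-trend count, 27 of 13172 genes, was 45 under quantile normalization, 77 with the sum of reads as total (28 higher and 49 lower), 0 with no filter, 181 at a mean of at least 5 FPKM, 171 with the length and GC correction and 0 (without knockdown library 1) to 882 (without knockdown library 2) with 1 library left out. Of the 9 chaperone genes it called 0, and 1 of the 7 tested at a mean of at least 5 FPKM. The limma-voom count, 1019 (255 higher and 764 lower), was 513 under quantile normalization (214 higher and 299 lower), 477 with the sum of reads as total (262 higher and 215 lower), 123 with no filter and 136 (without control library 1) to 4058 (without knockdown library 2) with 1 library left out. Of the 9 chaperone genes it called 3, and 1 with the sum of reads. It called 1 of 10 with no filter and 1 of 7 at a mean of at least 5 FPKM, where HSPA1B and HSPH1 were not tested. The sum of reads moved the median over all genes to 0.08, against -0.03.

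The median of the chaperone genes (-0.46) was -0.14 under quantile normalization and -0.58 to -0.31 with 1 library left out. That of cytosolic companions (-0.17) was -0.080 under quantile normalization, -0.037 with the sum of reads and -0.26 to -0.12 with 1 library left out. That of mitochondrial companions (-0.18) was -0.093, -0.051 and -0.23 to -0.084 in the same order. DNAJA1, HSP90AA1 and HSPD1 turned to 0.045, 0.12 and 0.14 by limma-trend under quantile normalization, where limma-voom gave -0.10, -0.028 and -0.023. The summed HSPA1 pair kept its direction in all settings: its limma-trend change was -1.37 to -0.84 with 1 library left out, and its limma-voom change -1.60 with no filter (adjusted p = 0.0633) and -1.93 to -1.26 with 1 library left out. Over all alternatives, with the main limma-voom fit counted as an alternative to limma-trend, 191 values of single genes and ratios were kept. For genes this means the same direction and side of the threshold. For ratios, which have no threshold, it means a shift smaller than the SD among libraries of a group. A gene uncalled in both fits thus counts as kept even where its change shrank. One case is HSP90AB1, at -0.46 by limma-trend and -0.0009 under quantile normalization. Of the gene values, 13 newly passed the threshold, 12 no longer did and 3 (DNAJA1, HSP90AA1 and HSPD1) turned. Counts of calls, list medians and the summed pair are not in these numbers. Of their values 59 were kept and 39 moved. Causes were not tested.

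Labels do not say that library numbers pair the groups, and same-numbered libraries deviated apart (r = -0.207 over 13172 genes). With a replicate block limma-trend called 781 genes and 3 of the chaperone genes, and the pair reached an adjusted p of 0.000681 at -1.10; limma-voom with the block called 1072 genes. The crossed pairing, chosen after seeing the data, called 1910 genes and 4 chaperone genes by limma-trend and 4007 genes and 6 chaperone genes by limma-voom. With either block, or with 1 library left out, the calls rest on 1 residual degree of freedom before the spread is shared across genes. Depth limits HSPA1A, which rests on 3 to 25 reads a library.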
